A study of Mus musculus with 4 samples.

Results

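The 10 genes described here are the leukemia inhibitory factor (LIF) receptor route to STAT3 in mouse embryonic stem cells (mESCs) and its direct targets: *Lif*, *Lifr*, *Il6st*, *Jak1*, *Jak2*, *Stat3*, *Socs3*, *Gbx2*, *Pim1* and *Pim3*. They were taken by symbol from a list chosen with earlier results of these data known. Each matched 1 of the 37310 genes of the count table. RNA was sequenced from HATX mESCs, which carry a doxycycline-inducible *Xist* transgene and which the study describes as haploid. There were 2 libraries labelled HATX WT and 2 labelled SpenKO, all of the latter from clone 2 of a *Spen* deletion in the same line, so any feature of the clone that is unrelated to *Spen* enters each value. Both groups share the mixed genomic background and the *Xist* transgene, the labels state no treatment, and all cells grew on 0.2% gelatin in serum medium that contained 0.01% LIF. Since the labels do not say that the libraries came from separate cultures, p-values measure only the spread between these libraries, which may be technical.

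LIF binds a receptor made of LIFR and gp130 (the product of *Il6st*), which carries JAK kinases on its inner side. The kinases phosphorylate the receptor and STAT3, and STAT3 then enters the nucleus and binds DNA at its target genes. In mESCs grown with serum this signal holds the cells in self-renewal, and Socs3, made in response to it, blocks the receptor again.

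Total counts ran from 36667685 to 61908422 per library, and 17710 genes received an adjusted p from DESeq2. *Spen* itself had 3716 and 3047 normalized counts (counts divided by a factor for the depth of the library) in WT and 7797 and 6242 in the libraries labelled KO. Such a count over the whole gene does not show whether the deleted bases are present, so it is no check of the label. The study reports a rise of *Spen* mRNA when the protein is lost. The mESC markers *Pou5f1*, *Sox2*, *Nanog*, *Esrrb*, *Zfp42*, *Utf1*, *Tdgf1*, *Dppa5a*, *Dppa4* and *Fgf4* summed to 241869 to 247951 normalized counts in WT and 248449 to 260331 in the KO-labelled libraries. Of these 10, 2 were higher and 1 lower at a DESeq2 adjusted p under 0.05. Over all genes tested 16.4% were higher and 15.8% lower, the shares to set beside each marker list here. Copies elsewhere in the genome cover 47.5% and 87.2% of the exonic bases of the 2 higher markers, *Zfp42* and *Dppa5a*, so their counts are uncertain. Of 10 fibroblast markers, 6 had an adjusted p, with 1 higher (*Thy1*) and 1 lower (*Acta2*). The sum of the 10 was 245 to 268 in WT and 478 to 547 in the KO-labelled libraries, and without *Thy1* 127 to 131 and 122 to 133. *Lum*, *Postn* and *Twist2* were at 0 in 3 of 4 libraries each. Of 9 primitive endoderm markers, 6 had an adjusted p, with 1 higher (*Hnf4a*) and 2 lower (*Lama1* and *Gata4*). The sum of the 9 was 3694 to 3755 in WT and 1332 to 1409 in the KO-labelled libraries, with *Ttr* at 0 in all 4. Without *Lama1* it was 305 to 357 and 268 to 276. The part of these shifts in the results below was not tested. In bulk RNA, fewer cells of a type and less RNA per cell cannot be told apart.

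The stretches of 100 bases just before the start of the target genes are shown because all 4 of these genes were lower in the KO-labelled libraries and because STAT3 acts on such genes through DNA. They are from the NCBIM37 (mm9) sequence, 5′ to 3′ on the strand of the gene, and end at the base before the start of a protein-coding transcript in the GENCODE vM1 annotation (for *Socs3* the only one, since its longer transcripts are noncoding and hold this stretch in an intron). Capitals mark the STAT motif TTCCNGGAA, which reads the same on both strands.
Socs3: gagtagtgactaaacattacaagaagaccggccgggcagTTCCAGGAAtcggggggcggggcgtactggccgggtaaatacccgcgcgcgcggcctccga
Gbx2: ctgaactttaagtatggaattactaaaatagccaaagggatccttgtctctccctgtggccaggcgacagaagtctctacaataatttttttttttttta
Pim1: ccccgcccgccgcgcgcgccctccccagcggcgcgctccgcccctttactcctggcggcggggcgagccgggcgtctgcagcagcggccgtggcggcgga
Pim3: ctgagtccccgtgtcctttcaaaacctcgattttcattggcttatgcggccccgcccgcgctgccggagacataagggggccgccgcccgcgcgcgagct
They lie at chr11:117830501-117830600 (minus strand), chr1:91829866-91829965 (minus strand), chr17:29627657-29627756 (plus strand) and chr15:88692516-88692615 (plus strand). The *Socs3* site began 61 bases before the start. In windows from 250 bases before to 50 bases after each start of a protein-coding transcript, the motif occurred in 1 of 10 members, *Socs3*, and in 1.70% of 22368 protein-coding genes. The looser form TTCNNNGAA, which includes the stricter one, occurred in the same 1 member and in 11.8% of genes. G and C made up 64%, 36%, 84% and 66% of the 4 stretches in the order shown, so the base composition before *Gbx2* was unlike that before the other targets. A match describes letters only, and its absence says nothing of STAT3 binding elsewhere.

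The comparison of WT with KO-labelled libraries asks how these genes differ when *Spen* is lost. Of the 10 members, 7 were lower and 0 higher in the KO-labelled libraries at a DESeq2 adjusted p under 0.05, against 15.8% lower, 16.4% higher and 32.3% in either direction among all genes tested. Among the genes with a mean normalized count at least that of the lowest member, 20.7% were lower and 25.8% higher. *Lif*, *Il6st*, *Jak1*, *Socs3*, *Gbx2*, *Pim1* and *Pim3* were lower, and *Lifr*, *Jak2* and *Stat3* were not called. At an unadjusted p under 0.05 the counts were also 7 and 0, against 19.5% lower and 20.1% higher among all genes tested. By edgeR they were 7 and 0 as well, against 21.6% and 19.4% of the genes it tested. In the 7 lower genes both KO-labelled libraries lay below both WT libraries, which held for 34.8% of all genes tested, and in 0 members did both lie above, which held for 35.4%. The median log2 fold change of the members was -0.35, against 0.00 over all genes tested.

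The changes were small. The 7 log2 fold changes ran from -0.79 to -0.27, and 0 of 10 members passed the thresholds of the study (2-fold or more, with adjusted p below 0.001), which 1.36% of all genes tested passed upward, 3.15% downward and 4.51% in all. Without the fold minimum 4 members were lower (*Socs3*, *Gbx2*, *Pim1* and *Pim3*), against 8.87% of all genes tested. With any 1 of the 4 libraries left out, 4 members remained lower at an adjusted p under 0.05 in each fit, the lone library being assumed to vary like the other group. The share lower among all genes tested also fell in these fits, from 15.8% to between 10.5% and 12.02%. *Gbx2* and *Pim3* were called in all 4 of these fits, *Pim1* in 3, *Jak1* and *Socs3* in 2, *Il6st* in 1 and *Lif* in 0.

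**Figure D1:**
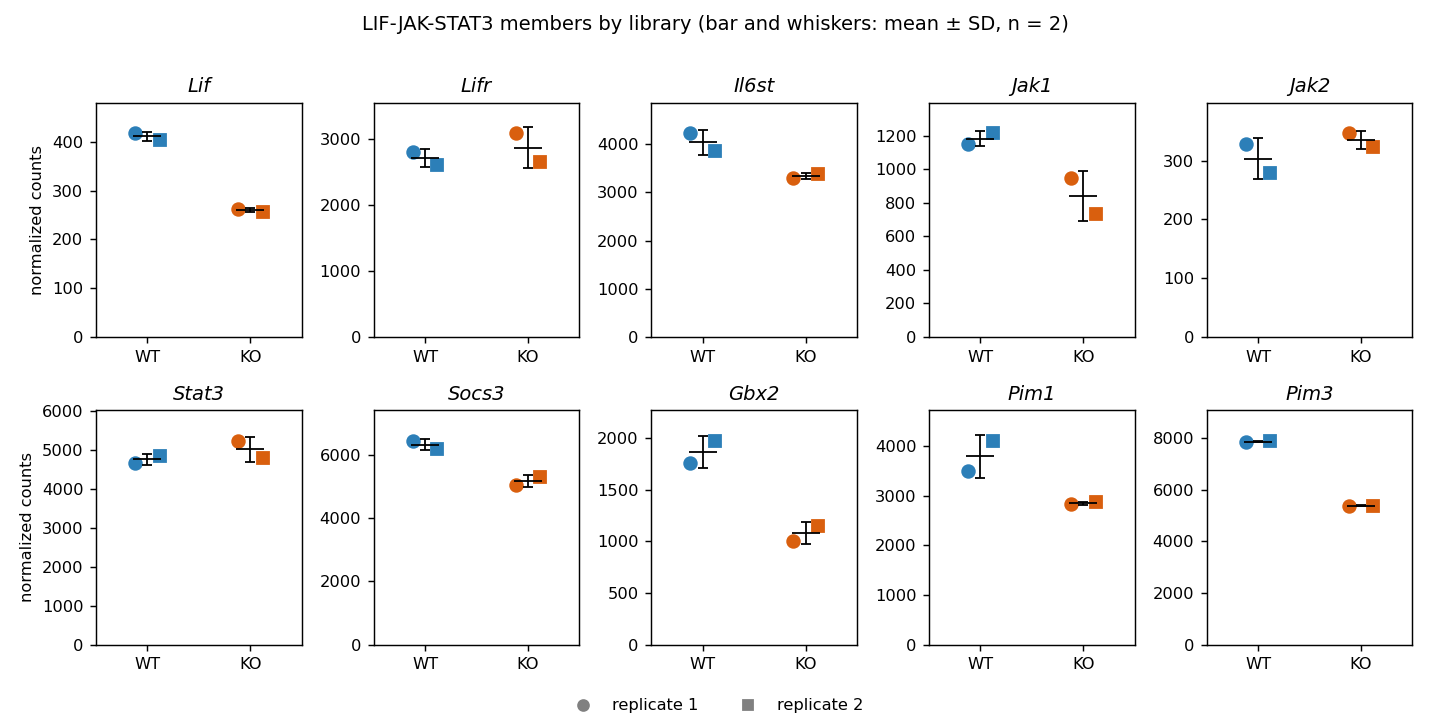
Normalized counts (vertical axes, from 0) of the 10 members in 2 WT and 2 KO-labelled libraries, shown as KO, with circles for replicate 1, squares for replicate 2, and bars and whiskers for the mean ± SD (n = 2). The groups do not overlap in *Lif*, *Il6st*, *Jak1*, *Socs3*, *Gbx2*, *Pim1* and *Pim3*, and they overlap in *Lifr*, *Jak2* and *Stat3*.

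The ligand was the scarcest member in the KO-labelled libraries by length and, with all libraries, the most reduced member upstream of STAT3. Without KO-labelled replicate 1, *Jak1* was at -0.68 and *Lif* at -0.67. *Lif* (ENSMUSG00000034394.8, chromosome 11, 4157560 to 4172517, plus strand) encodes the cytokine that is also supplied in the medium. It had 418 and 405 normalized counts in WT and 263 and 257 in the KO-labelled libraries. This gap between the groups was far larger than the spread within them (means 411 ± 8.86 and 260 ± 4.44, SD, n = 2). *Lif* fell by 0.66 ± 0.19 (SE) on the log2 scale (DESeq2 adjusted p = 0.00261), so that the fitted level fell by 36.8%. At 302 to 372 counts per library it had, with *Jak2*, the fewest reads of the members. Its adjusted p ran from 0.0727 without KO-labelled replicate 1 to 0.100 without WT replicate 1, and was 0.0822 without WT replicate 2 and 0.0874 without KO-labelled replicate 2, while the log2 fold change stayed between -0.68 and -0.64.

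The 2 receptor subunits differed in outcome. *Il6st* (chromosome 13, 113265216 to 113297068, plus strand) encodes gp130, the signalling subunit shared by the interleukin-6 family of cytokines. It had 4221 and 3851 normalized counts in WT and 3297 and 3374 in the KO-labelled libraries. *Il6st* fell by 0.27 ± 0.09 (SE) on the log2 scale (DESeq2 adjusted p = 0.00599), the smallest change among the called members. The call was lost without WT replicate 1 (-0.20, 0.224), KO-labelled replicate 1 (-0.25, 0.137) and KO-labelled replicate 2 (-0.29, 0.0858), where each pair gives the log2 fold change and the DESeq2 adjusted p. *Lifr* (chromosome 15, 7079559 to 7147489, plus strand) encodes the subunit that gives LIF its specificity. It had 2801 and 2611 normalized counts in WT and 3084 and 2644 in the KO-labelled libraries. These ranges overlap. The fitted difference was 0.08 ± 0.10 (SE) on the log2 scale, its 95% interval ran from -0.11 to 0.28 and its DESeq2 adjusted p was 0.603, so the interval holds neither a fall like that of *Il6st* nor a 2-fold rise. Without KO-labelled replicate 1 the difference was -0.026. The difference between the 2 subunits was not tested.

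Of the 2 kinases, *Jak1* was lower and *Jak2* was not called. *Jak1* (chromosome 4, 100824972 to 100937887, minus strand) encodes a kinase that sits on gp130. It had 1151 and 1215 normalized counts in WT and 949 and 734 in the KO-labelled libraries. Libraries labelled KO also lay apart from each other (mean 842 ± 152, SD, n = 2). *Jak1* fell by 0.49 ± 0.14 (SE) on the log2 scale (DESeq2 adjusted p = 0.00261). Its log2 fold change was -0.32 (adjusted p = 0.208) without KO-labelled replicate 2 and -0.45 (0.111) without WT replicate 2. Genes of chromosome 4 had a median log2 fold change of -0.21, and with chromosome medians removed *Jak1* was at -0.29 (DESeq2 adjusted p = 0.125), so its call did not hold against the genes of its own chromosome. *Jak2* (chromosome 19, 29326318 to 29387570, plus strand), a second kinase of the same family, had 329 and 279 normalized counts in WT and 347 and 324 in the KO-labelled libraries. Both groups overlap. The fitted difference was 0.14 ± 0.20 (SE) on the log2 scale (95% interval -0.25 to 0.54, DESeq2 adjusted p = 0.654). With 1 library left out it ran from 0.032 to 0.27. Chromosome 19 had a median of 0.38, and with chromosome medians removed *Jak2* was at -0.24 (DESeq2 adjusted p = 0.429). Its direction therefore depended on that setting.

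*Stat3* (chromosome 11, 100746412 to 100800854, minus strand), the transcription factor on which the route ends, was not called. It had 4658 and 4845 normalized counts in WT and 5223 and 4787 in the KO-labelled libraries. Replicate 1 of the KO-labelled libraries lay above both WT libraries and the other between them. The fitted difference was 0.07 ± 0.08 (SE) on the log2 scale (95% interval -0.085 to 0.23, DESeq2 adjusted p = 0.549). It was -0.090 with chromosome medians removed and ran from 0.018 to 0.14 with 1 library left out. The interval corresponds to a level between 0.943 and 1.18 of that in WT, so a fall as large as that of any of the 4 targets lies outside it. RNA levels do not show how much STAT3 protein was phosphorylated.

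**Figure D2:**
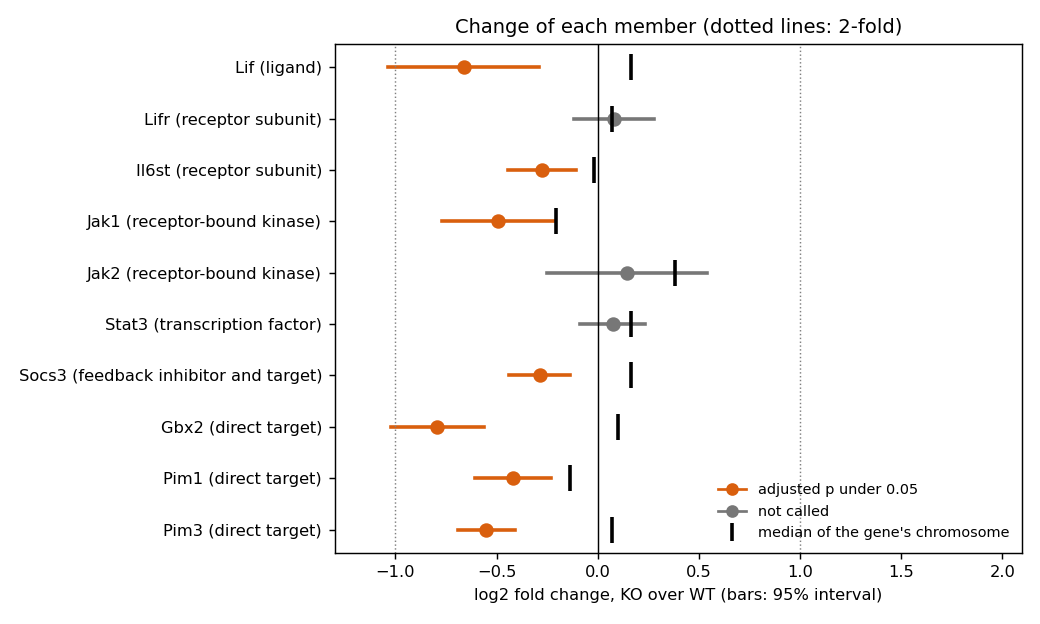
Log2 fold change of each member (horizontal axis, KO-labelled over WT) with its 95% interval, orange where the DESeq2 adjusted p was under 0.05 and grey where it was not, and a black tick at the median of the genes on the same chromosome. The 7 called members lie between -0.79 and -0.27, all to the left of their chromosome medians, and inside the dotted lines that mark a 2-fold change.

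All 4 target genes were lower in the KO-labelled libraries, against 15.8% of all genes tested. Of 11 other STAT3 targets in mESCs, described below, 2 were lower and 3 higher. The median log2 fold change of the 4 targets was -0.48. That of the 6 members upstream of them, 3 of which were lower, was -0.10. With chromosome medians removed these medians were -0.54 and -0.25, and the difference between them was not tested. *Gbx2* (chromosome 1, 91824537 to 91829865, minus strand) encodes a homeobox factor that can hold mESCs in self-renewal. It was the most reduced member. It had 1755 and 1972 normalized counts in WT and 1000 and 1152 in the KO-labelled libraries. *Gbx2* fell by 0.79 ± 0.12 (SE) on the log2 scale (DESeq2 adjusted p = 3.76e-10), between means of 1864 ± 153 and 1076 ± 107 (SD, n = 2). It fell in each fit that left out 1 library, where its log2 fold change ran from -0.89 to -0.69. *D130058E05Rik* covers 32.4% of its exonic bases on the other strand. That gene had 0 counts in all 4 libraries, but all of its exonic bases lie within those of *Gbx2* and the strand setting of the counting was not stated, so the 0 does not show that it gave no reads.

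The 2 Pim kinases, serine/threonine kinases that favour survival and growth, fell together. *Pim3* (chromosome 15, 88692616 to 88696150, plus strand) had 7839 and 7880 normalized counts in WT and 5352 and 5379 in the KO-labelled libraries. Libraries of a group differed little (means 7860 ± 28.6 and 5366 ± 19.0, SD, n = 2), and the groups did not overlap. *Pim3* fell by 0.55 ± 0.07 (SE) on the log2 scale (DESeq2 adjusted p = 3.67e-13), the smallest p of the members. *Pim1* (chromosome 17, 29627757 to 29632390, plus strand) had 3492 and 4105 normalized counts in WT and 2826 and 2867 in the KO-labelled libraries. Its WT libraries were farther from each other than its KO-labelled ones. *Pim1* fell by 0.42 ± 0.10 (SE) on the log2 scale (DESeq2 adjusted p = 0.000103). Without WT replicate 2 it was -0.29 with an adjusted p of 0.0716. *Gm16912* covers 23.7% of the exonic bases of *Pim1* on the other strand. That gene had 111 to 134 counts per library and a log2 fold change of -0.67 ± 0.30 (SE, DESeq2 adjusted p = 0.0729), and the same limit on strand holds.

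*Socs3* (chromosome 11, 117827393 to 117831361, minus strand), the feedback inhibitor of the receptor and the member whose promoter holds the STAT motif shown above, was lower by a smaller amount. It had 6439 and 6198 normalized counts in WT and 5042 and 5312 in the KO-labelled libraries. These groups did not overlap. *Socs3* fell by 0.29 ± 0.08 (SE) on the log2 scale (DESeq2 adjusted p = 0.000927). The call was lost without WT replicate 1 (adjusted p = 0.071) and without KO-labelled replicate 1 (0.091). Genes of chromosome 11 had a median log2 fold change of 0.16, and with chromosome medians removed *Socs3* was at -0.45 (DESeq2 adjusted p = 5.33e-08). *Pim1* was then at -0.28, so the order of *Socs3* and *Pim1* depended on that setting.

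Levels were also compared between members as counts per kilobase of exon, scaled to a fixed total per library. In WT the order was *Pim3* (67.4 ± 1.11), *Socs3* (45.4 ± 0.638), *Pim1* (40.0 ± 5.08), *Il6st* (16.1 ± 0.838), *Stat3* (10.4 ± 0.422), *Gbx2* (9.13 ± 0.868), *Lifr* (5.44 ± 0.200), *Jak1* (3.40 ± 0.175), *Lif* (1.95 and 1.97 in the 2 libraries) and *Jak2* (1.25 ± 0.130), as mean ± SD of 2 libraries. No neighbours in this order overlapped, but the gaps between *Pim1* and *Socs3* and between *Gbx2* and *Stat3* were little larger than the SD of the first of each pair. The first 3 ranks were held by targets, and *Pim3* stood above 94.2% of the genes tested while *Jak2* stood above 35.8%. In the KO-labelled libraries *Pim3* was at 46.1 ± 0.382, *Socs3* at 37.3 ± 0.931, *Pim1* at 30.0 ± 0.0504 and *Il6st* at 13.3 ± 0.0596. Lower in the order, *Gbx2* (5.28 ± 0.463) came to overlap *Lifr* (5.78 ± 0.695), and *Lif* (1.24 ± 0.0360) came below *Jak2* (1.39 ± 0.0825). With the longest transcript as the length, the mean of *Stat3* over the 4 libraries was 16.8 in place of 10.6, above that of *Il6st* at 14.7, so the order of those genes depends on the transcripts assumed. *Gbx2* and *Pim1* share exonic bases with genes on the other strand. The strand setting of the counting was not stated, so the ranks of *Gbx2* and *Pim1* may depend on it.

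**Figure D3:**
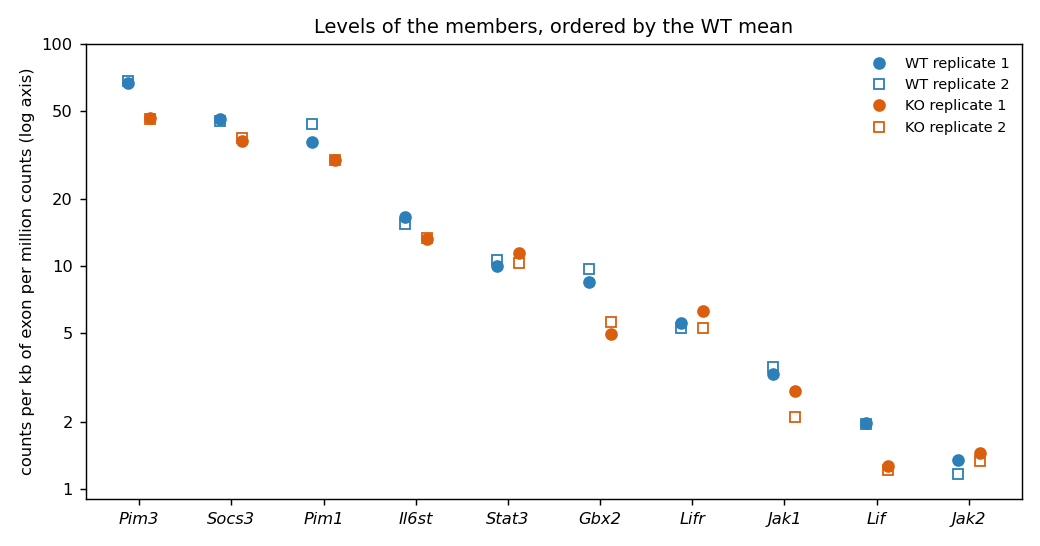
Level of each member per library in counts per kilobase of exon at a fixed library total (CPM per kilobase, vertical log axis), ordered by the WT mean, with WT in blue, KO-labelled libraries in orange, filled circles for replicate 1 and open squares for replicate 2. *Pim3*, *Socs3* and *Pim1* lie above 30.0 in all 4 libraries, and *Lif* and *Jak2* lie below 2.

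Ratios of these levels within a library describe how the members stood to each other. *Il6st* over *Lifr* was 2.99 and 2.93 in WT and 2.12 and 2.53 in the KO-labelled libraries. *Jak1* over *Jak2* was 2.44 and 3.03 against 1.91 and 1.58. *Socs3* over *Stat3* was 4.56 and 4.22 against 3.18 and 3.66. Each of these 3 ratios was lower in both KO-labelled libraries than in both WT libraries. *Pim3* over *Pim1* was 1.83 and 1.56 against 1.54 and 1.53, so that 1 WT library lay close to the KO-labelled ones. *Lifr* over *Lif* was higher, at 4.94 and 4.34 against 2.82 and 2.71. These ratios are descriptions without a test.

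The rest of the pathway was followed through 5 further lists, also chosen with earlier results of these data known. They held 62 genes, of which 57 had an adjusted p. At a DESeq2 adjusted p under 0.05, 13 were lower and 9 higher, where 15.8% and 16.4% of all genes tested were, and their median log2 fold change was 0.06, against 0.00 over all genes tested. The counts of each list below stand against the same shares. With 1 library left out the counts were 6 to 8 lower and 4 to 9 higher, where 10.5% to 12.02% of all genes tested were lower and 10.8% to 12.1% higher. At the thresholds of the study 4 of the 57 passed, all lower, among them *Gab1* and *Pik3r1*, against 3.15% lower and 1.36% higher among all genes tested. No difference between lists was tested.

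**Figure D4:**
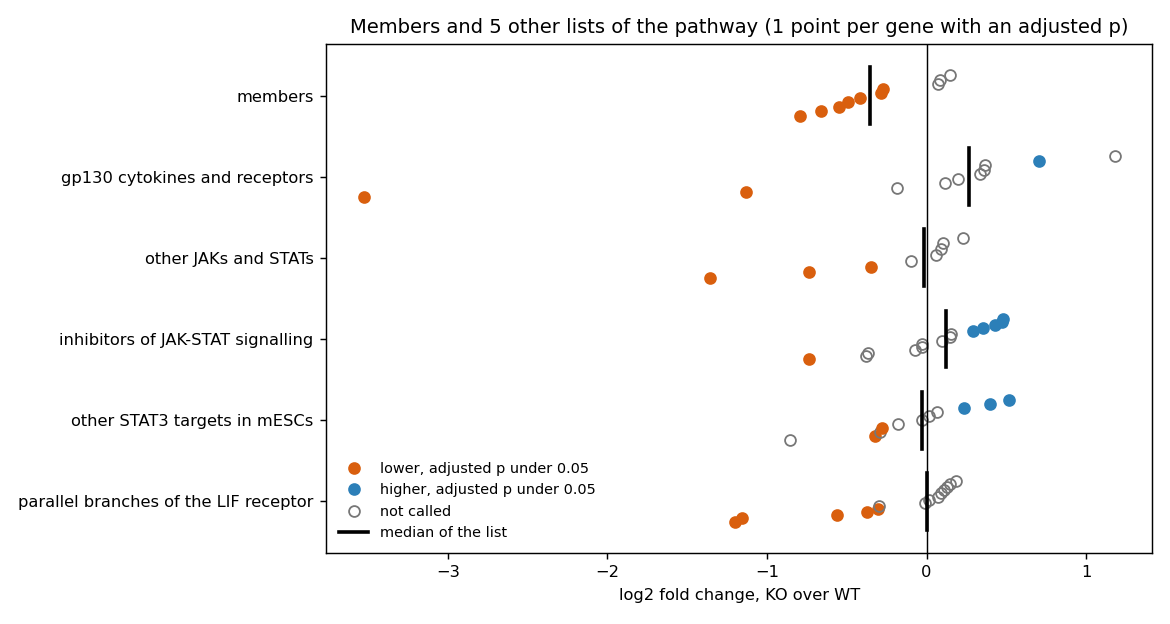
Log2 fold change (horizontal axis, KO-labelled over WT) of each gene with an adjusted p in the members and 5 other pathway lists, orange where lower and blue where higher at a DESeq2 adjusted p under 0.05, open where not called, with a black bar at the median of the list. The members have 7 orange and 0 blue points, and the inhibitors of JAK-STAT signalling have 1 orange and 5 blue.

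Of 14 other cytokines and receptors that use gp130, 2 were lower, 1 higher, 7 not called, and 4 (*Il6*, *Il11*, *Il27* and *Osmr*) were too low for an adjusted p. *Il6ra*, the receptor subunit that binds interleukin-6, had 178 and 203 normalized counts in WT and 335 and 286 in the KO-labelled libraries, a log2 fold change of 0.71 ± 0.23 (SE, DESeq2 adjusted p = 0.0082). It was not called when any 1 library was left out, with adjusted p of 0.067 (KO-labelled replicate 2), 0.0635 (WT replicate 2), 0.238 (KO-labelled replicate 1) and 0.154 (WT replicate 1). The cytokine gene *Osm* was lower, with 37 and 26 counts in WT and 6 and 2 in the KO-labelled libraries, but had no adjusted p, and so no call, when any 1 library was left out.

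Among the other JAKs and STATs, 3 of 8 were lower and 0 higher. *Stat4*, a STAT best known from lymphocytes, had 1128 and 1123 normalized counts in WT and 660 and 689 in the KO-labelled libraries, a log2 fold change of -0.74 ± 0.13 (SE, DESeq2 adjusted p = 6.85e-08). It was called with any 1 library left out. *Tyk2*, a kinase that can also sit on gp130, was at -0.35 ± 0.10 (SE, DESeq2 adjusted p = 0.00202), and its call was lost without KO-labelled replicate 2 (0.113), WT replicate 1 (0.0528) and WT replicate 2 (0.0934). The 5 genes not called, *Stat5a* and *Stat5b* among them, had log2 fold changes from -0.10 to 0.23.

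Of 15 inhibitors of JAK-STAT signalling other than *Socs3*, 14 had an adjusted p, and 5 of these were higher and 1 lower, against 16.4% and 15.8% of all genes tested. *Pias2* and *Pias1* encode SUMO ligases of the family of protein inhibitors of activated STAT. *Pias2* had 6747 and 7193 normalized counts in WT and 10081 and 9361 in the KO-labelled libraries, a log2 fold change of 0.48 ± 0.08 (SE, DESeq2 adjusted p = 4.96e-09). *Pias1* had 1286 and 1433 against 1877 and 1898, at 0.47 ± 0.11 (SE, DESeq2 adjusted p = 7.03e-05). Both were called with any 1 library left out, while *Pias3*, named for STAT3, was at -0.03 (DESeq2 adjusted p = 0.885).

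The phosphatase gene *Ptpn6* was at 0.43 (DESeq2 adjusted p = 0.00603) and *Socs7* at 0.35 (0.00109). *Ptpn6* was called only without WT replicate 2 among the fits that left out 1 library, with adjusted p of 0.100 without KO-labelled replicate 1, 0.119 without KO-labelled replicate 2 and 0.209 without WT replicate 1. *Socs7* was not called without KO-labelled replicate 1 (0.0613), without WT replicate 1 (0.0668) or with chromosome medians removed (0.133). *Socs4*, outside the naming rule and named after its value was seen, was close to the threshold, at 0.29 (DESeq2 adjusted p = 0.0498), and was called only without WT replicate 2 when 1 library was left out. *Socs5* was lower, at -0.73 ± 0.20 (SE, DESeq2 adjusted p = 0.00114), and lost its call without KO-labelled replicate 1 (0.0658) and WT replicate 1 (0.101).

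Of 11 other genes known as STAT3 targets in mESCs, 3 were higher, 2 lower and 6 not called. Over all genes tested, 16.4% were higher and 15.8% lower. *Tcfcp2l1* (now named *Tfcp2l1*), a factor of the naive pluripotency network, had 33850 and 33055 normalized counts in WT and 45697 and 50152 in the KO-labelled libraries. Its rise was 0.52 ± 0.07 (SE) on the log2 scale (DESeq2 adjusted p = 1.31e-12). *Sall4*, a zinc finger factor of mESCs, had 33587 and 32521 against 43169 and 43919, at 0.40 ± 0.06 (SE, DESeq2 adjusted p = 3e-09). Both rose in every fit that left out 1 library.

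*Smad7*, an inhibitor of TGF-beta signalling, was at 0.24 (DESeq2 adjusted p = 0.0111), and at 0.11 (0.348) with chromosome medians removed. *Klf5*, a factor of the same family as *Klf4*, was at -0.28 (DESeq2 adjusted p = 0.00811), and *Pim2*, the third Pim kinase, at -0.32 (0.00167). Of these, *Smad7* and *Pim2* were called only without WT replicate 2 when 1 library was left out (0.012 and 0.0338), with adjusted p of 0.0845 to 0.256 and of 0.0531 to 0.100 without each of the others. *Klf5* was called only without WT replicate 1 (0.00297), and was at 0.0665 to 0.355 without each of the others. *Klf4*, *Myc* and *Mcl1* had log2 fold changes of 0.01, 0.07 and -0.03, with DESeq2 adjusted p of 0.924, 0.612 and 0.819. Copies elsewhere in the genome cover 38.4% of the exonic bases of *Pim2*, so its counts are uncertain, whereas they cover at most 1.19% in any of the 10 members.

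The LIF receptor also feeds the ERK and PI3K-AKT branches. Of 14 genes of these branches, 5 were lower, 0 higher and 9 not called, against 15.8% lower and 16.4% higher among all genes tested. *Gab1*, an adaptor that joins the receptor to both branches, had 10754 and 11172 normalized counts in WT and 4641 and 4899 in the KO-labelled libraries, a log2 fold change of -1.20 ± 0.07 (SE, DESeq2 adjusted p = 2.79e-58). *Pik3r1*, a regulatory subunit of PI3K, had 566 and 455 against 234 and 223, at -1.16 ± 0.20 (SE, DESeq2 adjusted p = 4.49e-08). Both were called with any 1 library left out.

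*Akt1* was at -0.37 (DESeq2 adjusted p = 0.000183) and *Sos2* at -0.56 (0.00826). Both lie on chromosome 12, whose median was -0.32, and with chromosome medians removed they were at -0.05 and -0.24 with adjusted p of 0.742 and 0.361. *Sos2* was not called when any 1 library was left out (0.0974 without KO-labelled replicate 1, 0.163 without KO-labelled replicate 2, 0.186 without WT replicate 1 and 0.0988 without WT replicate 2). The fifth lower gene, *Ptpn11*, which encodes the phosphatase SHP2 and is outside the naming rule and named after its value was seen, was at -0.30 (DESeq2 adjusted p = 0.00388), and it was not called without KO-labelled replicate 1 (0.157) or WT replicate 1 (0.238). The 9 genes not called included *Grb2*, *Shc1* and *Pik3ca*.

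**Figure D5:**
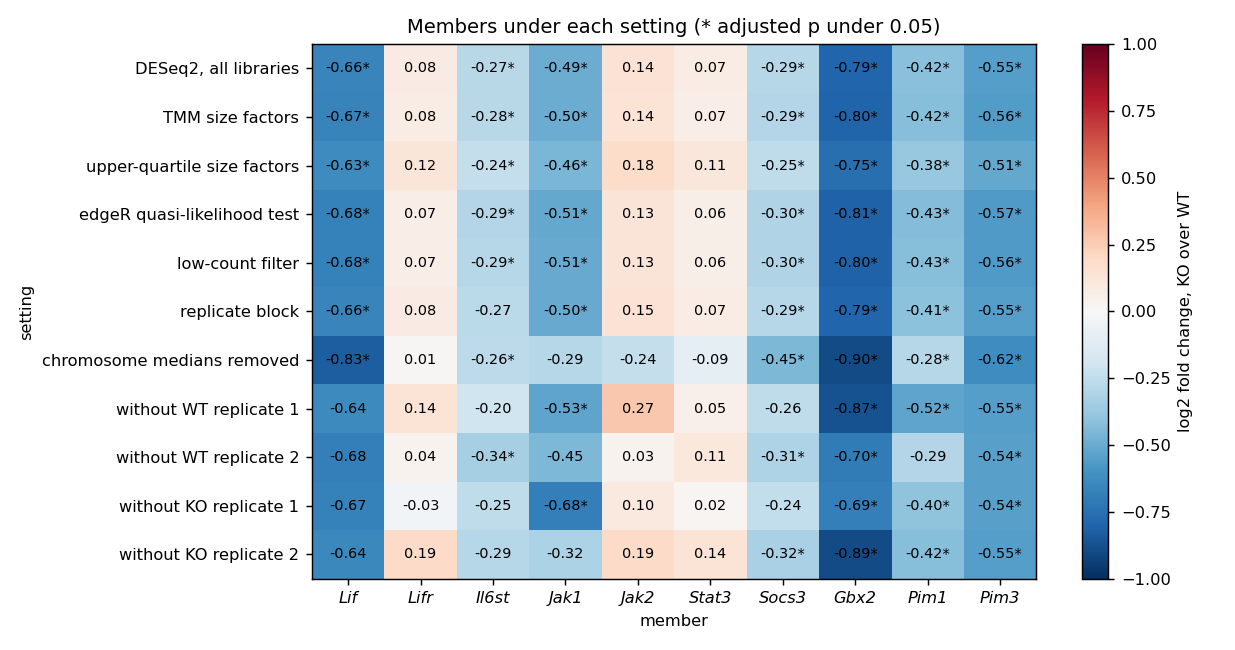
Log2 fold change of each member (columns, KO-labelled over WT) under 11 settings (rows), coloured from blue for lower to red for higher, with an asterisk at an adjusted p under 0.05. *Gbx2* and *Pim3* carry an asterisk in every row, *Lifr*, *Jak2* and *Stat3* in no row, and *Lif* loses it in each row that leaves out a library.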

How the data were processed

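RNA-seq of 2 WT and 2 *Spen* KO clone 2 libraries was used, grouped by title. Per the study's methods, stranded libraries depleted of ribosomal RNA were sequenced as paired 75-base reads, mapped to mm9 with STAR and assigned to GENCODE vM1 genes with featureCounts. The deposited values are the authors' raw counts per gene, without normalization. Versions, strand setting and treatment of reads with several matches are not given in the sources used here. All 37310 identifiers matched the annotation.

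DESeq2 1.42.0 (R 4.3.3) was fitted to every gene with group as the sole term, as the study used DESeq2, with Benjamini-Hochberg adjusted Wald p-values, and edgeR 4.0.16 was run beside it. Both were tested on simulated counts. Intervals are 95% Wald intervals. Levels used merged exons and library totals (CPM per kilobase). Copies are matches of at least 97% identity over at least 75 bases. *Dab2*, with 2 rows, was left out of its list. Named genes were *Spen*, all members, and up to 4 called genes per direction and list (mean of at least 50), some of which are not reported here. The members and lists were chosen with earlier results of these data known. Alternatives were TMM and upper-quartile size factors, edgeR, a filter (at least 10 counts in at least 2 libraries), the replicate block, removal of chromosome medians, thresholds and leaving out each library. Replicates differed by more than sampling noise (chi-square per degree of freedom 36.9 in WT, 14.3 in KO). Counting without molecular identifiers does not give independent molecules.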

Additional observations from a re-analysis of the deposited data

How the results depend on the processing

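The count of 7 lower members became 4 with any 1 library left out, 4 at adjusted p below 0.001 whatever the fold and 0 at an adjusted p under 0.05 with a fold of at least 2. Why the first count fell was not tested, and the others use stricter thresholds. Under TMM and upper-quartile scaling, edgeR and the low-count filter it stayed at 7. It was 6 with chromosome medians removed and 6 with the replicate block. No member was higher, and none passed the thresholds of the study, under any of these settings. The median log2 fold change of the members was -0.31 with upper-quartile size factors, -0.37 with edgeR, -0.36 with the low-count filter, -0.28 with chromosome medians removed and -0.39 to -0.32 with 1 library left out, each farther from -0.35 than the spread between replicates (0.0099). The median over all genes tested was 0.005 in the fit that gave -0.35, and 0.042 with upper-quartile size factors. It was -0.006 with edgeR, -0.003 with the low-count filter and -0.016 with chromosome medians removed. With 1 library left out it ran from 0.004 to 0.014. The cause of the shifts in the members was not tested. The directions that turned were those of *Jak2* (-0.24) and *Stat3* (-0.090) with chromosome medians removed and of *Lifr* (-0.026) without KO-labelled replicate 1, its range over the 4 fits with 1 library left out being -0.026 to 0.19, none of them called in either direction. Over all genes, 2909 were higher and 2805 lower. With 1 library left out these became 1563 to 1815 and 1572 to 1737, and the other pathway lists together had 4 to 9 higher and 6 to 8 lower. The median level of the members per kilobase was 8.93, against 9.64 with a total that omits the 10 highest genes and 10.96 with the longest transcript as the length.

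The labels give the libraries a number and state no pairing. Across 13306 genes, the correlation of the deviations from the group mean between libraries with equal numbers was -0.0177. That value shows no strong shared effect, but it cannot settle whether the libraries were paired. A block for the number left 1857 higher genes and 1973 lower ones, and *Il6st* (-0.27, DESeq2 adjusted p = 0.0703) was the 1 member whose call it removed. In the other pathway lists together it left 6 higher and 11 lower, and *Il6ra* was among the genes whose call it removed. *Jak1* was the 1 member that lost its call with chromosome medians removed.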

Other observations

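The genes around the members were also examined. These were picked by position, and those named here were chosen after their values were seen. Within 200000 bases of the 10 members lay 76 tested genes, of which 13 (17.1%) were higher and 9 (11.8%) lower at a DESeq2 adjusted p under 0.05 (16.4% and 15.8% over all genes tested).

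The neighbourhood of *Lif* held 3 of the lower genes and 1 higher gene among 9 tested. *Osm*, a cytokine gene of the same family, lies 16530 bases before *Lif* on the same strand with no annotated gene between them, and its log2 fold change was -3.53 ± 0.89 (SE, DESeq2 adjusted p = 0.000461), on 37 and 26 counts in WT and 6 and 2 in the KO-labelled libraries. When 1 library was left out it had no adjusted p in any of the 4 fits, and its log2 fold change ran from -4.62 to -2.88. *Gatsl3*, beyond *Osm*, had 1550 and 1616 normalized counts in WT and 822 and 758 in the KO-labelled libraries, a log2 fold change of -1.003 ± 0.12 (SE, DESeq2 adjusted p = 2.85e-16). *Hormad2*, on the other side, had 396 and 416 against 201 and 163, at -1.16 ± 0.21 (SE, DESeq2 adjusted p = 5.76e-07). *Ccdc157*, farther out, was higher at 0.64 (DESeq2 adjusted p = 0.0016).

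Both tested neighbours of *Gbx2* in its window, *Agap1* (-0.35) and the sparsely counted *Iqca* (-3.80), were lower. In the window of *Jak1*, its neighbour *Raver2* (-1.26) and, beyond it, *Cachd1* (-3.16) were lower, and *Ak4* (0.65), on the other side beyond 4 other tested genes, was higher. Around *Socs3* 4 of 13 tested genes were higher and 0 lower, around *Stat3* 4 of 18 higher and 1 lower, and around *Pim1* 0 of 11 higher and 1 lower. In the windows of *Il6st* (3 tested), *Jak2* (6) and *Pim3* (7) 1 gene each was higher and 0 lower, and that of *Lifr* held 0 tested genes. No window was tested against another. *Stat3*, *Stat5a* and *Stat5b*, none of them called, lie side by side on chromosome 11. Whether position has a part in these values was not tested.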
